A study of Homo sapiens with 3 samples.

Results

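Integrins and CD44 are the receptors by which a glioma cell holds on to the matrix around it. The 10 genes described here are the integrin subunits ITGAV, ITGA2, ITGA3, ITGA5, ITGA6, ITGB1, ITGB3, ITGB5 and ITGB8 and the hyaluronan receptor CD44. They were taken by symbol from the array annotation and make up 10 of the 25006 named genes and 12 of the 58201 probes on the array. ITGA6 and CD44 have 2 probes each and the other genes have 1.

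The study compared RNA from a pair of clones of U-87MG, an established human glioblastoma cell line. Both clones carry a transgene for the IGF1 receptor fused to GFP and were selected with G418. U87WT 5, called U87WT here, has the wild-type receptor, which can enter the nucleus, and U87Mut 5, called U87Mut, has the receptor GFP-IGF1R1025x-1100x-1120x, which is changed at its SUMO acceptor lysines and does not enter it. Each line is 1 stable clone, and no parental sample was used here, so what sets a clone apart by chance of selection and what its receptor does cannot be told apart.

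Cells of both clones were kept for 24 h without serum, with IGF1 at 50 nM, or with IGF1 at 50 nM after OSI906, an inhibitor of the kinases of the IGF1 and insulin receptors. The OSI906 dose is 0.5 uM in the sample name and in the methods and 500 uM in the description of the medium. On each of the 3 arrays, U87WT RNA was labeled with Cy5 and U87Mut RNA with Cy3. There was 1 array per condition and no dye swap, so a value between conditions has no replicate error, and a dye bias of a probe and a difference between the clones cannot be told apart.

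An integrin is a pair of one alpha and one beta subunit that spans the membrane. The pair decides the ligand: alpha v with beta 3, beta 5 or beta 8 reads the RGD sequence of vitronectin, fibronectin and latent TGF-beta, alpha 5 with beta 1 reads fibronectin, and alpha 3 and alpha 6 with beta 1 read laminins. On the inside, talin and kindlin bind the beta tail and recruit FAK, ILK and paxillin. Alpha v beta 3 and alpha v beta 5 are known from glioblastoma cells and their vessels and were the targets of cilengitide. CD44 binds hyaluronan, the main glycan of brain matrix, and is commonly high in glioblastomas of the mesenchymal type.

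All 62976 spots of each array were scanned, no spot was saturated, and the share of probes well above background in both channels was 52.8%, 50.1% and 52.4% on the serum-free, IGF1 and IGF1+OSI906 arrays. The background model was fitted without spots that the scanner software marks as nonuniform in signal or local background (572 on the IGF1 array). No spot of the 10 genes was left out of the values for a nonuniform signal or as an outlier. Their marks for local background were not counted. Values below are in the order serum-free, IGF1, IGF1+OSI906. A ratio is the log2 ratio of U87WT over U87Mut, and a level is the normalized log2 signal of 1 channel. The mesenchymal markers CHI3L1, LGALS1, S100A4 and VIM were well above background in all 6 channels, and so were the glial genes AQP4, SLC1A3 and OLIG2, while the glial markers GFAP, ALDH1L1, OLIG1 and SOX10 were not above it in any.

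ITGAV and ITGB1 were the best measured of the genes, since their probes are printed 10 times on each array. ITGAV (NM_002210) encodes the alpha v chain shared by the RGD-binding integrins, and ITGB1 (NM_133376) encodes beta 1, the most widely paired of the beta chains. RefSeq promoter windows, from 250 bases before to 50 after a gene's start, are shown for both because their RNA could be followed spot by spot; the build is GRCh38.p14, ITGAV lies at chr2:186589806-186590105 on the plus strand and ITGB1 at chr10:32958181-32958480 on the minus strand, and capitals mark the letters GGGCGG or their reverse complement CCGCCC, the GC box.
ITGAV: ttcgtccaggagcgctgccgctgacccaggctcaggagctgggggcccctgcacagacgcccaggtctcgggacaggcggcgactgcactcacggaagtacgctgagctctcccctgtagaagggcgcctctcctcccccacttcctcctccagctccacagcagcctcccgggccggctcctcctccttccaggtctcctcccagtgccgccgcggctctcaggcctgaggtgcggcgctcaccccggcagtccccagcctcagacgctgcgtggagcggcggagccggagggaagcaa
ITGB1: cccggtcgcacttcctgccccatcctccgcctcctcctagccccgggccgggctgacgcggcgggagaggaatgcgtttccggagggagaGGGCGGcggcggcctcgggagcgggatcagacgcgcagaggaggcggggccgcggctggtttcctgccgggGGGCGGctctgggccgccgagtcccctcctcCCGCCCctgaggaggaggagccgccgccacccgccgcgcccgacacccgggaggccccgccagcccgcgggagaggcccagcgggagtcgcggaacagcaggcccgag
The ITGAV window is 70.7% G or C and holds no GC box letters, and the ITGB1 window is 78.3% G or C and holds 3. Each gene has 1 further window in the table, not printed, and these are 41.3% and 40.7% G or C with no GC box letters. Over the 13 windows of the 8 genes with an entry, 10 hold GC box letters, against 45.0% of 35116 windows of the annotation, and 1 window, of ITGA5, holds the AP-1 letters TGANTCA, against 7.71%. The letters CCAAT occur in 2 of the 13 windows (34.6% of all), TATAAA in 2 (11.5%) and the FOXO letters GTAAACA in 0 (3.42%), on either strand. These counts describe sequence and were not related to the levels.

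ITGAV RNA was higher in U87WT than in U87Mut on all 3 arrays. Its level was 11.21, 11.01 and 11.01 in U87WT and 10.59, 10.38 and 10.63 in U87Mut, so the lowest U87WT value lay above the highest U87Mut value. The ratios were 0.61, 0.62 and 0.38, which is 1.53-fold, 1.54-fold and 1.30-fold. Among 15346 genes well above background, 4.28% had a higher ratio in serum-free medium, 4.53% with IGF1 and 9.42% with IGF1 and OSI906.

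The 10 ITGAV spots had ratios of 0.53 to 0.70, 0.57 to 0.72 and 0.31 to 0.47, with an SD of 0.049, 0.047 and 0.051. In the processing used here, the spots of the IGF1+OSI906 array thus lay below all those of the other 2 arrays, which overlapped. That order was not kept in other settings. With the background fitted on all spots, the ratio was 0.28 with IGF1 and 0.38 with IGF1 and OSI906. With median centring it was 0.36 in serum-free medium and 0.48 with IGF1 and OSI906. Spots repeat the reading of 1 hybridized pair of RNAs, and their spread leaves out that between cultures. Over the 3 arrays the limma test gave ITGAV a mean ratio of 0.54 (SE 0.062, n = 3 arrays, adjusted p = 0.0143). The test takes 3 conditions as if they were replicates, so any response to treatment is part of its error. The adjusted p was 0.00444 to 0.410 over 14 other settings and under 0.05 in 7 of them: it was 0.123 with the background model fitted on all spots, 0.0844 without the serum-free array and 0.0529 without the IGF1+OSI906 array. The ratio was above 0 in all 11 alternatives run on each array, at 0.36 to 0.68, 0.24 to 1.09 and 0.36 to 0.48. With 1 probe for the gene, the mean of all probes and probes well above background alone could only repeat the value used here. On the IGF1 array it was 0.28 with the background fitted on all spots and 0.24 in the deposited table, under the limit of 0.5, and 1.09 with median centring.

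**Figure D1:**
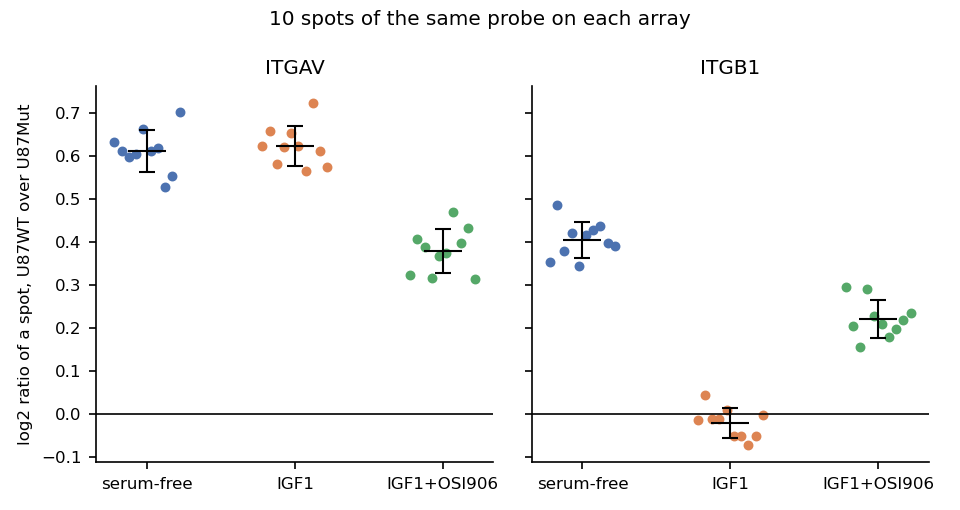
Log2 ratio of U87WT over U87Mut (vertical axis) for each of the 10 spots of the ITGAV and ITGB1 probes on the 3 arrays (horizontal axis); the black line and bars are the mean and SD over spots of 1 array. ITGAV spots lie between 0.31 and 0.72 on the arrays, and ITGB1 spots lie near 0 on the IGF1 array, from -0.07 to 0.05, apart from both other arrays.

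ITGB1 RNA was higher in U87WT in serum-free medium by more than the spread of its spots, and level with U87Mut with IGF1. Its level was 10.85, 10.46 and 11.01 in U87WT and 10.45, 10.48 and 10.79 in U87Mut. The U87WT level was thus lowest on the IGF1 array, where it met that of U87Mut. The ratios were 0.41, -0.02 and 0.22, with spot SDs of 0.042, 0.035 and 0.044, and the spot ranges of the 3 arrays (0.35 to 0.49, -0.07 to 0.05 and 0.16 to 0.30) did not overlap.

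Within U87WT, ITGB1 was 0.39 lower with IGF1 than without serum, and 10 of 10 spots were lower. It was 0.55 higher (1.47-fold) with IGF1 and OSI906 than with IGF1, again in 10 of 10 spots. Within U87Mut, the same differences were 0.03, with 5 spots up and 5 down, and 0.31, with 10 of 10 up. The mean ratio over the arrays was 0.20 and did not pass the limma test (SE 0.087, adjusted p = 0.293); without the IGF1 array it was 0.31 (adjusted p = 0.0455, against up to 0.847 over the 14 settings). The IGF1 ratio depended on the scaling: it was -0.34 with the background fitted on all spots and 0.43 with median centring in place of loess, under which the change of the ratio from serum-free medium to IGF1 turned from -0.43 to 0.29.

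ITGB3, which encodes beta 3, the partner of alpha v in the vitronectin receptor, showed the widest range of the 10 genes between arrays. Its level (NM_000212, 1 probe, 1 spot) was 10.16, 10.38 and 11.60 in U87WT and 10.65, 10.56 and 11.08 in U87Mut. The highest value of either clone was on the IGF1+OSI906 array, and U87WT lay below U87Mut on the other arrays and above it there. The ratios were -0.50, -0.19 and 0.52, so the clones exchanged places between the serum-free and IGF1+OSI906 arrays. The ratio with IGF1 was less settled, at -0.55 to 0.27 over 11 alternatives, and it was above 0 with median centring in place of loess.

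In U87WT, ITGB3 was 1.45 higher (2.73-fold) with IGF1 and OSI906 than in serum-free medium and 1.23 higher (2.34-fold) than with IGF1 alone. Only 9 of 15344 genes well above background had a larger difference from serum-free medium in that clone, and 57 of 15341 had a larger one from IGF1. In U87Mut the same differences were 0.43 (1.35-fold) and 0.52 (1.43-fold), which 157 and 280 genes exceeded. The ratio was 1.01 higher on the IGF1+OSI906 array than on the serum-free array, and 14 of 15344 genes had a larger shift. These are differences between single arrays and carry no test. The limma test, which asks whether the mean ratio over the arrays differs from equal levels in the clones, gave ITGB3 a mean of -0.05 (SE 0.199, adjusted p = 0.919).

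The serum-free array had 384 nonuniform spots, with a fitted background SD in U87WT of 5.17 without them and 8.91 with them, and the IGF1+OSI906 array had 5. Over 11 alternatives the ITGB3 ratio was -0.77 to -0.48 in serum-free medium and 0.49 to 0.65 with IGF1 and OSI906, and its shift was 1.01 to 1.42. Within U87WT the difference between these conditions was 1.19 to 1.44 over 4 ways of processing the channels, and within U87Mut it was 0.18 to 0.45. For scale, different probes of 1 gene on 1 array differed in ratio with an SD of 0.214 to 0.233.

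**Figure D2:**
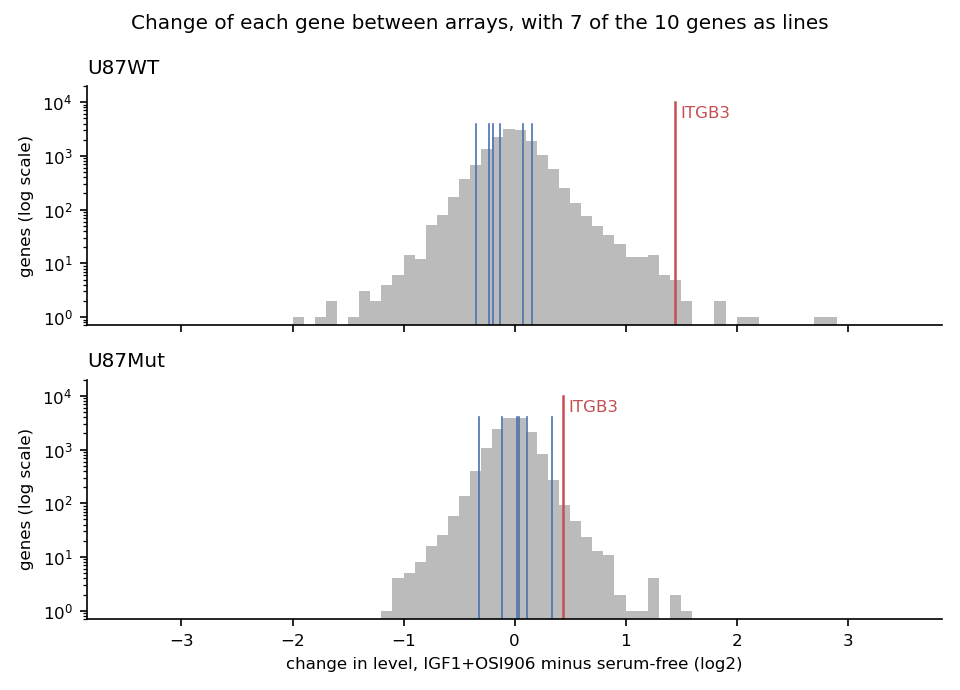
Change in level from the serum-free array to the IGF1+OSI906 array (horizontal axis, log2) for genes well above background, as a histogram with the number of genes on a log axis, in U87WT (top) and U87Mut (bottom); lines mark the 7 of the 10 genes that were well above background in all channels. ITGB3 stands at 1.45 in U87WT and 0.43 in U87Mut, and the other 6 lie between -0.35 and 0.34.

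The other beta chains that pair with alpha v had smaller differences between arrays. ITGB5 (NM_002213), the chain of a second vitronectin receptor, had levels of 11.73, 11.51 and 11.61 in U87WT and 11.60, 11.29 and 11.71 in U87Mut. Its ratios of 0.14, 0.22 and -0.11 lay on both sides of 0 and within the spread of probes of 1 gene (adjusted p = 0.607). ITGB8 (NM_002214), whose product with alpha v activates latent TGF-beta, was well above background on the IGF1+OSI906 array alone, in both channels, with levels of 6.26 in U87WT and 6.14 in U87Mut, against 5.89 to 5.97 on the other arrays. There is no fold to give for a probe so near the background. Its ratios were -0.02, -0.08 and 0.12 (adjusted p = 0.967).

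Among the alpha chains that pair with beta 1, ITGA5 (NM_002205), the fibronectin receptor chain, was the nearest to constant. Its level was 10.48, 10.39 and 10.56 in U87WT and 10.59, 10.51 and 10.61 in U87Mut. U87WT was lower on every array, by ratios of -0.11, -0.12 and -0.06, though with median centring they were -0.38, 0.33 and 0.03, and the difference did not pass the test (mean -0.09, SE 0.035, limma adjusted p = 0.228).

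ITGA3 (NM_002204), a laminin receptor chain, had levels of 11.52, 11.38 and 11.17 in U87WT and 11.47, 11.09 and 11.15 in U87Mut. It was highest in serum-free medium in both clones, and with IGF1 and OSI906 it was 0.35 lower in U87WT and 0.32 lower in U87Mut. The ratios were 0.06, 0.29 and 0.02 (adjusted p = 0.390). The ratio on the IGF1 array was 0.05 when the background was fitted on all spots.

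ITGA6 encodes a laminin receptor chain that is used as a marker of glioblastoma stem cells. Its brighter probe (NM_000210) was well above background in U87WT on 3 of 3 arrays and in U87Mut on 1 of 3, with levels of 6.26, 6.54 and 6.13 against 5.99 to 6.03. Its other probe (NM_001365530) was well above background in U87WT on 3 of 3 arrays and in U87Mut on 0 of 3, with levels of 6.17, 6.20 and 6.02 against 5.95, 5.92 and 5.87. Both probes thus read higher in U87WT on each array.

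For the probe not well above background in U87Mut, the measured ratio was 1.16-fold on this scale (means of the normalized levels of 6.13 in U87WT and 5.92 in U87Mut, limma adjusted p = 0.0473). The mean log2 ratio behind it was 0.21, and 0.13 with the background fitted on all spots, so the fold is that of the fit used here and no lower bound. That call was kept in 3 of 12 alternatives, with adjusted p from 0.0139 to 0.367: it was 0.367 with the background fitted on all spots, and 0.200, 0.0991 and 0.139 without the serum-free, IGF1 and IGF1+OSI906 arrays. The brighter probe had ratios of 0.27, 0.54 and 0.10 and did not pass (mean 0.30, SE 0.089, adjusted p = 0.144, and 0.044 to 0.511 over 13 alternatives, of which 1 was under 0.05). The offset of 50 added to every signal shrinks ratios this near the background: with an offset of 20 the brighter probe's IGF1 ratio was 0.92 and with 0 it was 1.88, while with the background fitted on all spots it was 0.06.

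ITGA2 (NM_002203), a collagen receptor chain, was well above background in U87WT on 0 of 3 arrays and in U87Mut on 1 of 3. Its level was 5.88 to 5.91 in U87WT and 5.93, 5.83 and 6.0 in U87Mut, and no difference was detectable at this signal (ratios of -0.04, 0.08 and -0.12, adjusted p = 0.817).

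CD44 was read by a bright probe (NM_000610) and a dim one (NM_001202557). The bright probe had levels of 14.61, 14.06 and 14.38 in U87WT and 14.31, 13.96 and 14.20 in U87Mut. Both clones were highest in serum-free medium and lowest with IGF1. In U87WT the IGF1 level was 0.54 below that of serum-free medium (0.686-fold), and in U87Mut it was 0.35 below (0.784-fold); 97.9% and 94.8% of genes well above background had a higher value of that difference.

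The CD44 ratios were 0.30, 0.10 and 0.17, higher in U87WT on each array, and did not pass the limma test (mean 0.19, SE 0.049, adjusted p = 0.104). Over the alternatives they were 0.09 to 0.32, 0.03 to 0.81 and 0.08 to 0.53, and with IGF1 the ratio was 0.41 with the background fitted on all spots and 0.81 with median centring. The dim probe gave -0.11, -0.03 and 0.12 (adjusted p = 0.961) and levels between 6.63 and 6.89, so the probes disagreed in sign on 2 arrays. Its levels with IGF1 were 0.09 above those of serum-free medium in U87WT and 0.01 above in U87Mut, unlike those of the bright probe.

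**Figure D3:**
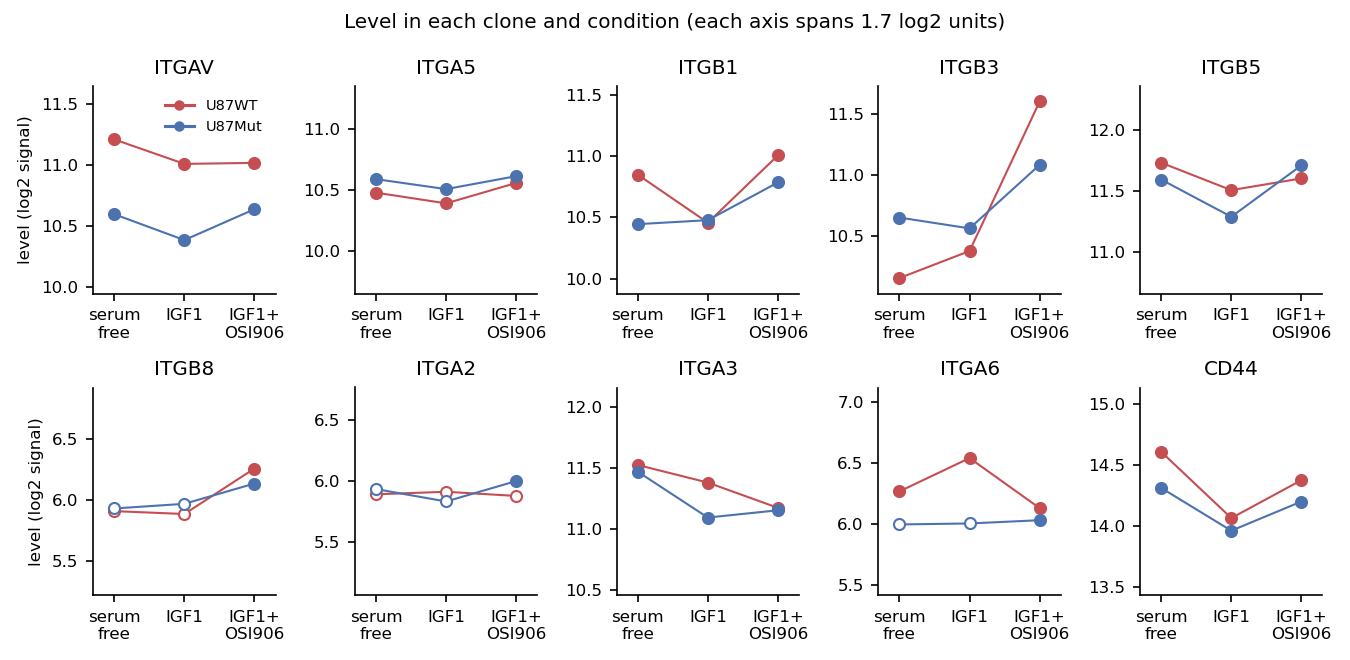
Normalized log2 signal (vertical axis, spanning the same number of units in every panel) of each gene's brightest probe in U87WT (red) and U87Mut (blue) in the 3 conditions; filled points are well above background, open points are not, and each point is 1 channel of 1 array. ITGAV is higher in U87WT throughout, ITGB3 lines cross between IGF1 and IGF1+OSI906, and CD44 is lowest with IGF1 in both clones.

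By size alone, few of the 10 genes passed a log2 ratio of 0.5, which is 1.41-fold. In serum-free medium 1 of 10 was above it, ITGAV, against 4.08% of 25004 named genes, and 0 of 10 were below -0.5, against 3.77%, with ITGB3 just inside at -0.495. With IGF1, ITGAV and ITGA6 were above it, 2 of 10 against 4.77%, and 0 were below, against 2.93%. With IGF1 and OSI906, ITGB3 was above it, 1 of 10 against 3.6%, and 0 were below, against 3.48%. Of the 7 genes well above background in all channels, 1 was above 0.5 on each array, against 6.37%, 7.33% and 5.75% of such genes, and 0 were below -0.5, against 6.12%, 4.72% and 5.66%. In these 7 the medians of the ratios were 0.14, 0.10 and 0.17, against -0.01, 0.02 and -0.01 over the 15346 such genes.

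Over the 3 arrays, 2 of the 12 probes passed the limma test as higher in U87WT (ITGAV and the dimmer ITGA6 probe), against 4.28% of all probes, and 0 passed as lower, against 4.15%. Of the 8 probes well above background in all channels, 1 passed as higher (ITGAV) and 0 as lower. Among genes well above background these shares were 11% and 10.7%. At an unadjusted p under 0.05 there were 4 of 12 higher, against 10.6% of all probes, and 1 lower, ITGA5, against 10.5%. When the test was run on probes well above background alone, 16.2% of them were higher and 17.0% lower at that limit. ITGAV, ITGA3, ITGA6 and CD44 had ratios above 0 on all 3 arrays and ITGA5 had ratios below 0 on all 3, which with median centring did not hold for ITGA3 (-0.18 in serum-free medium) or ITGA5; among genes well above background, 28.6% and 28.7% did so. No gene of the 10 was past 0.5 with the same sign on all 3 arrays.

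**Figure D4:**
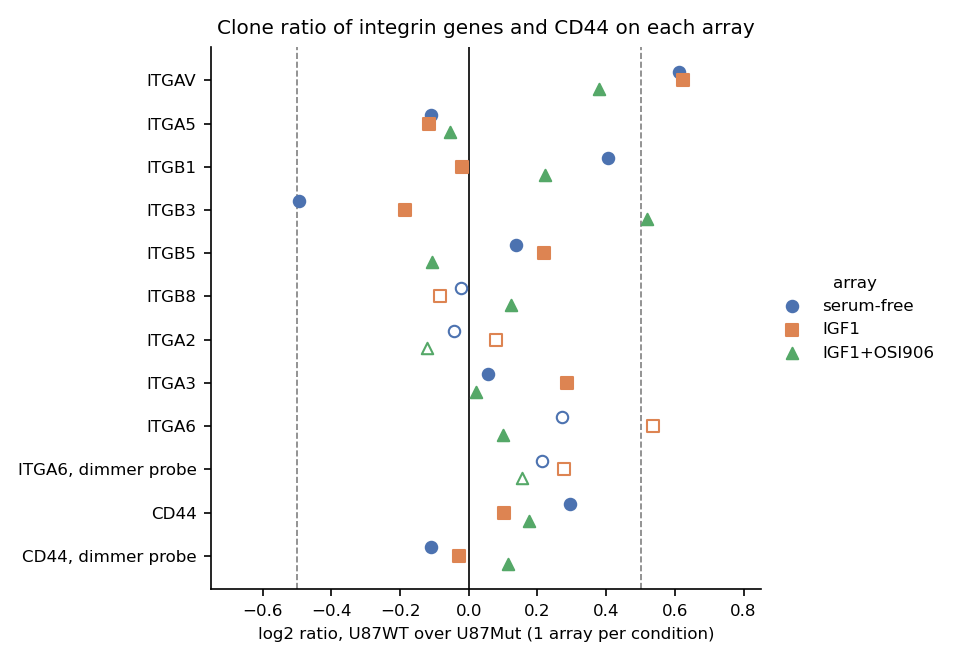
Log2 ratio of U87WT over U87Mut (horizontal axis) of each of the 12 probes on the 3 arrays; filled symbols were well above background in both channels, open symbols were not, and dashed lines mark -0.5 and 0.5. ITGAV lies to the right on every array, and ITGB3 spans from -0.50 to 0.52.

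Between conditions, the same limit of 0.5 was passed by few genes in either clone. From serum-free medium to IGF1, CD44 was the 1 gene of 10 below -0.5 in U87WT (background 1.76%), and 0 were above 0.5 (1.51%); in U87Mut 0 were below (1.03%) and 0 above (0.568%). From IGF1 to IGF1 with OSI906, ITGB1 and ITGB3 were above 0.5 in U87WT, 2 of 10 against 2.31%, and ITGB3 was in U87Mut, 1 of 10 against 1.27%. None of the 10 was below -0.5 in that step (2.47% in U87WT and 0.644% in U87Mut). From serum-free medium to IGF1 with OSI906, ITGB3 was the 1 gene above 0.5 in U87WT (1.51%) and 0 of 10 were in U87Mut (0.428%), and 0 were below -0.5 in either (1.46% and 0.468%). CD44, ITGB1 and ITGB3 were well above background, and shares among such genes were higher. For the CD44 call the share was 2.72%. For the calls from IGF1 to IGF1 with OSI906 it was 3.73% in U87WT and 2.07% in U87Mut. For the last ITGB3 call in U87WT it was 2.44%.

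The step from IGF1 to IGF1 with OSI906 in U87Mut is given here for the 7 genes well above background, by their brightest probes. The range was 0.06 (ITGA3) to 0.52 (ITGB3). Their median was 0.25, against a median of 0.02 and quartiles of -0.09 and 0.14 over all genes well above background. The share of all genes that rose in this step was not counted, though the median gene also rose. ITGA2, ITGA6 and ITGB8, near the background, read 0.17, 0.03 and 0.17. The dimmer probes of ITGA6 and CD44 read -0.06 and -0.26 there. With the background fitted on all spots, ITGA3 and ITGA5 were at -0.05 and -0.06. In U87WT that step had a median of 0.17 over the same 7 genes, against -0.02, and ran from -0.21 (ITGA3) to 1.23 (ITGB3). Over all 10 genes the medians were 0.13 in U87WT and 0.20 in U87Mut. ITGA6, near the background, read -0.41 in U87WT. Each step compares 1 array with another, both clones were read on the same arrays, and a shift between the arrays and a response of the cells cannot be told apart.

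The rest of the adhesion machinery was counted in 5 lists of 109 genes, of which 93 were well above background. Over the 3 arrays 21 of the 93 were higher in U87WT and 6 lower by limma, against 11% and 10.7% of genes well above background (7% and 6.65% of all named genes); these shares hold for the counts of each list below. At an unadjusted p under 0.05, 15.4% of named genes were higher and 14.7% lower. Of 17 other integrin subunits, 8 were well above background, and 3 of these were higher and 0 lower (of the 17, 6 and 0 at an unadjusted p under 0.05). ITGAX, the alpha chain of a complement receptor of myeloid cells, had ratios of 1.97, 1.99 and 1.88 (mean 1.94, adjusted p = 0.00291). ITGA7, a laminin receptor chain, had 1.33, 1.39 and 1.33 (mean 1.35, adjusted p = 0.00291), and ITGB4, the laminin-binding partner of alpha 6, had 0.54, 0.65 and 0.72 (mean 0.64, adjusted p = 0.00651). ITGA1, ITGA9 and ITGA10 had mean ratios of 0.05, -0.00065 and 0.01 and did not pass.

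ITGAX is read as a leukocyte gene, and of 4 leukocyte markers with a probe, CD14, CSF1R and PTPRC were well above background in all channels by their brightest probes. The summed level of all 4, AIF1 included and not in log2 units, was 901 to 1199.5 in U87WT and 664 to 862 in U87Mut. CSF1R was the brightest, at log2 levels of 9.40 to 9.91 in U87WT and 8.78 to 9.33 in U87Mut. CD14 and the brightest PTPRC probe lay at 6.09 to 6.52 in U87WT. Another PTPRC probe was well above background in all channels, at 6.04 to 6.26. The remaining PTPRC probes, at 5.77 to 5.94, were not well above background in any channel. What part this signal has in the ITGAX value was not tested.

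Of 28 matrix ligands of integrins, 26 were well above background, and 11 of these were higher in U87WT and 1 lower, against the same 11% and 10.7%. By their brightest probes, the laminin chains LAMA3 and LAMA4 had mean ratios of 1.12 and 0.99, and THBS2, a thrombospondin, had 0.76. The other LAMA3 probe, a dim one, had -0.02 and did not pass (limma adjusted p = 0.852). The other THBS2 probe had 0.28 and did not pass (limma adjusted p = 0.211). Other LAMA4 probes had 1.36, 1.18 and 0.08, and the last, a dim one, did not pass (limma adjusted p = 0.499). TNC, which encodes tenascin-C, a matrix protein of gliomas that binds alpha v beta 3, was lower, with a mean of -0.90 (adjusted p = 0.0049). SPP1, which encodes osteopontin, a ligand of both alpha v integrins and CD44, had a mean ratio of -0.15, and TGFB1 had -0.10, and neither passed.

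Of 31 adaptors and kinases, 29 were well above background, and 4 of these were higher (ILK, KRIT1, TGFB1I1 and TNS2) and 1 lower, near or under the 11% and 10.7%. TNS2, a tensin that links beta tails to actin, had a mean of 1.11, and FERMT3, the kindlin of blood cells, had -0.29. TNS3, SRC, PARVB and CRK had mean ratios of 0.94, 0.32, -0.30 and -0.25 that did not pass.

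Of 13 membrane partners, all well above background, 3 were higher and 1 lower, and the latter is under the 10.7% of genes. The tetraspanins CD82, CD63 and CD151, which sit beside integrins in the membrane, had means of 0.92, 0.41 and 0.28. SLC3A2, the CD98 heavy chain that binds beta 1 and beta 3 tails, had -1.07 (adjusted p = 0.0032), while PLAUR and BSG had -0.38 and -0.30 and did not pass.

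In the list of 20 genes around hyaluronan and CD44, 17 were well above background, and 0 of these were higher and 3 lower, against 11% and 10.7% (of the 20, 3 and 6 at an unadjusted p under 0.05, against 15.4% and 14.7%). The 3 were ADAM17, a sheddase of CD44, at -0.39, EZR, which ties CD44 to actin, at -0.53, and ESRP2, a splicing factor. MMP14, which cleaves CD44, had ratios of 1.54, 0.07 and 0.55 and did not pass (adjusted p = 0.254). HMMR, another hyaluronan receptor, had a mean of -0.37 and SRGN and HYAL2 had 0.27 and 0.19, and none of them passed.

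**Figure D5:**
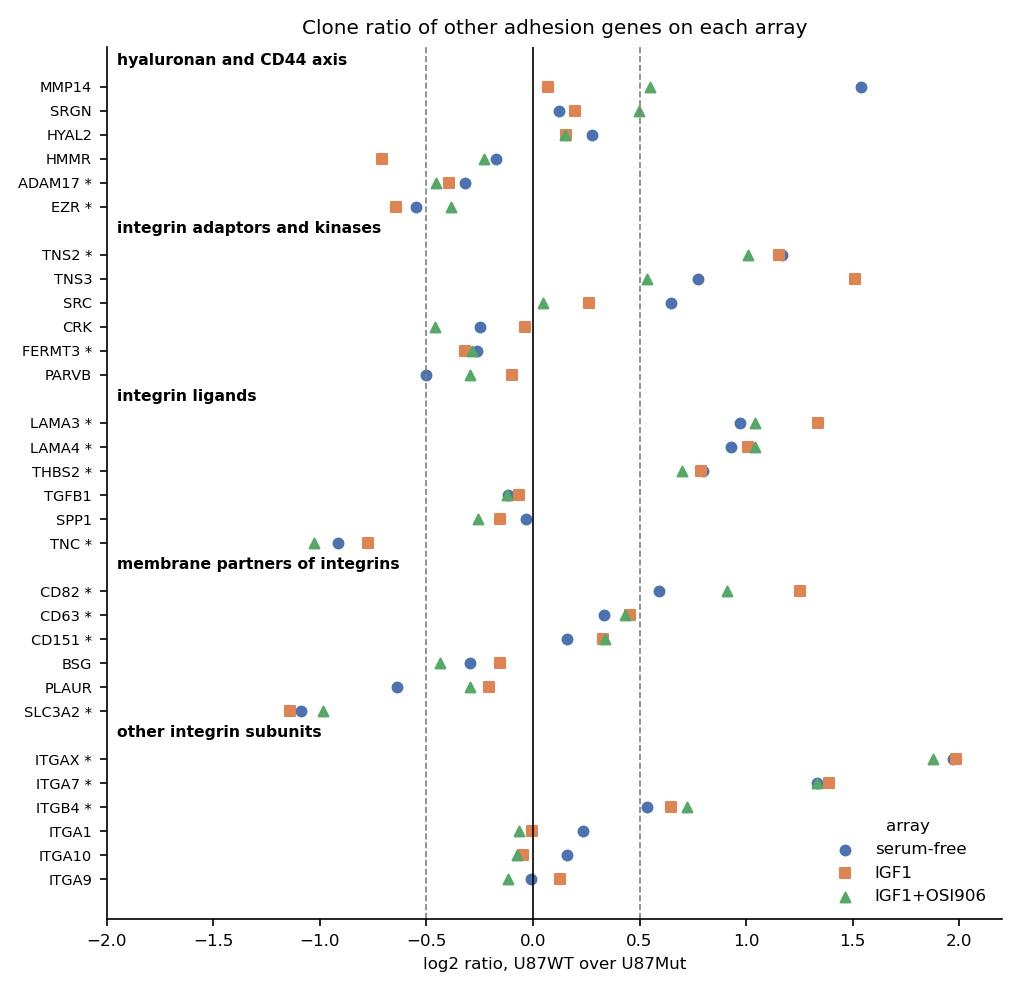
Log2 ratio of U87WT over U87Mut (horizontal axis) on the 3 arrays for the 3 highest and 3 lowest genes, by mean ratio, of each of the 5 lists; a star marks an adjusted p under 0.05 over the 3 arrays, and dashed lines mark -0.5 and 0.5. By their brightest probes, ITGAX, ITGA7, TNS2, LAMA3 and SLC3A2 lie far from 0 on all 3 arrays.

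The calls of the lists depended on the arrays and on the background model. Of the 27 calls, 12 were kept without the serum-free array, 22 without the IGF1 array 6 without the IGF1+OSI906 array, 5 with the background fitted on all spots, and 0 with the scanner software's processed signals or with median centring. ITGA7 had an adjusted p of 0.0282 with all spots, 0.0498 at most without 1 array, 0.131 with processed signals and 0.161 with median centring. For ITGAX these were 0.109, 0.0498, 0.131 and 0.117. The ratio of IGF1R itself was 0.07, 0.23 and 0.09 (adjusted p = 0.207), and whether its probe reads the transgene is not known. CDKN2A, which is deleted in U-87MG, had 1 probe well above background in all channels, at 7.57 to 8.02, and 1 probe at 5.92 to 6.02; which sequence each reads was not checked.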

How the data were processed

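The 3 samples are 2-color Agilent arrays. Per the file headers, Feature Extraction 12.0.3.1 gave each spot's median intensity and local background, without normalization, and a processed intensity. The headers also give a log10 ratio from processed signals, deposited as the software wrote it and not used here. A table of log2 ratios, U87WT against U87Mut, was deposited by the authors, who made it with limma; it served as an alternative, and its medians were -0.0066, -0.0074 and -0.0030, and it correlated with the ratios used here at 0.994, 0.644 and 0.989.

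With R 4.3.3 and limma 3.58.1, normexp (offset 50) was fitted without nonuniform spots, followed by loess within and Aquantile between arrays. Control spots and spots flagged as outliers were left out, and repeated spots were averaged per probe. RefSeq accessions gave 34892 of 58201 probes a symbol, and a gene's value is that of its brightest probe. The clone difference was tested with limma (intercept only, 3 arrays, Benjamini-Hochberg at 0.05 over 58201 probes). Precision is limited by having 1 array per condition. Arrays were from 1 slide and 1 scan.

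The genes and lists were chosen with earlier results of these data known. Named beside the 10 genes are IGF1R and the 3 highest and 3 lowest genes per list by mean ratio among those well above background; other genes called in a list, the markers and CDKN2A are named as such. Alternatives were other background corrections, normalizations, probe rules, limits, and leaving out each array. The windows come from RefSeq.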

Additional observations from a re-analysis of the deposited data

Results flagged for a closer look

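The ITGB3 ratio of U87WT over U87Mut lay below 0 on the serum-free array (-0.50) and above 0 on the IGF1+OSI906 array (0.52), a shift of 1.01 on the log2 scale. It was singled out because the clones moved to opposite sides of 0. With 1 array in each condition and 1 spot for the probe, the difference was not tested.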

How the results depend on the processing

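Each ITGAV ratio, the ITGB3 ratios in serum-free medium and with IGF1 and OSI906, and the CD44 ratios of the bright probe kept their sign under all 11 alternatives run on them. Some of these could not differ. Probes well above background alone repeat each of these values, and so does the mean of all probes for ITGAV and ITGB3. Keeping flagged spots also changed little, since no spot of these genes had been left out. No value past 0.5 in size changed sign. Limits set by signal concern ITGA2, ITGA6 and ITGB8, which lay near the background.

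Ratios past 0.5 in size numbered 4 of 30, and 8 with an offset of 0, 11 with the scanner software's processed signals and 8 with median centring. Those above 0.5 numbered 1, 2 and 1 on the serum-free, IGF1 and IGF1+OSI906 arrays, and those below -0.5 numbered 0 on each. Counts above moved to 2 in serum-free medium without background correction, with an offset of 0 or with scanner signals (3 with IGF1 and OSI906). Median centring gave 0, 5 and 2. With IGF1 the count was 0 with the background fitted on all spots or in the deposited table, and 1 with the mean of all probes or probes well above background alone. Scale normalization gave 0 with IGF1 and OSI906. Counts below moved to 1 in serum-free medium with all spots, scanner signals, median centring or scale normalization, to 1 with IGF1 with an offset of 0, scanner signals or the deposited table, and to 1 with IGF1 and OSI906 with an offset of 0 or scanner signals. A limit of 0.5 SD of each array gave 5, 4 and 5 above and 1 on each below, and a limit of 1 gave 0 above on each.

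The limma test called 2493 probes higher and 2414 lower. It called 155 and 520 with all spots in the background fit, 275 and 177 with an offset of 0, and 179 and 606 in the deposited table. With scanner signals it called 0 and 0 (4791 and 5160 at an unadjusted p under 0.05), and with median centring 0 and 0 (3435 and 1692). Leaving out 1 array gave 122 to 2935 higher and 110 to 3098 lower, the fewest without the IGF1+OSI906 array. Without the serum-free array the counts were 676 and 483.

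Changes between conditions past 0.5 numbered 4 of 40, and 7 without normalization between arrays, which moved the median gene by -0.17 in U87WT and -0.21 in U87Mut from serum-free medium to IGF1, and 16 with scanner signals. The CD44 difference from serum-free medium to IGF1 was -0.77 to -0.40 in U87WT and -0.57 to -0.35 in U87Mut. Of the list genes, 14 were above 0.5 with IGF1, and 7 with the background fitted on all spots. Median centring moved the median ratio of all genes to -0.17, 0.30 and 0.05. The cause of these differences was not tested. The fitted background SD of U87WT on the IGF1 array was 1.32 without nonuniform spots and 701 with them. The mean spot signal was not run as an alternative, since the files used here give median signals. The clones were paired on each array, and the limma test of the ratios used that pairing. Between conditions no paired analysis was possible, since each condition has 1 array.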
